A study of Mus musculus with 6 samples.

Results

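The genes described here are 47 ion channel and calcium store genes of the vessel wall, out of 33460 genes with a value in the RNA-seq files. They were taken by symbol: potassium channels of vascular cells other than the KATP channel, voltage-gated calcium channels with their accessory subunits, TRP channels and polycystins, calcium release channels of the endoplasmic reticulum, store-operated entry genes, calcium pumps and the chloride channel genes *Ano1* and *Clcn3*. All 47 symbols matched 1 Ensembl gene each in the annotation of the NCBIM37 mouse assembly.

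The RNA came from brains taken at P6, the sixth day after birth, from *Pdgfrb-eGFP/NG2-DsRed* mice, in which eGFP is driven by the *Pdgfrb* promoter and DsRed by the NG2 (*Cspg4*) promoter. Both groups carry both reporters. There were 3 libraries of mural cells, the pericytes (PC) and vascular smooth muscle cells (VSMC) of the vessel wall, sorted by FACS as positive for eGFP and DsRed, and 3 libraries of microvascular fragments, which were pulled down with beads carrying anti-CD31 after collagenase digestion and hold endothelial cells (EC) together with mural cells. According to the methods, the brains of 3 mice were split, with one side used for sorting and the other for fragments, but the labels do not say which libraries came from the same brain. Some arteriolar and venular mural cells carry little DsRed, so that a double positive gate can miss part of the VSMC. The fragments contain mural cells, so that a ratio between the groups compares sorted cells with a mixture that includes them. The marker lists below show endothelial and glial transcripts in the sorted libraries too. A value given for mural cells is therefore that of a sorted library and not of a pure cell type. In such bulk samples, fewer cells of a type and less RNA per cell cannot be told apart.

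Ion channels set the tone of small vessels through membrane voltage and cytosolic calcium. Potassium efflux hyperpolarizes mural cells and closes voltage-gated calcium channels, whereas chloride efflux and cation entry through TRP channels depolarize them. Calcium that enters the cell or leaves the stores through IP3 and ryanodine receptors activates the contractile apparatus, and pumps return it to the stores or to the outside.

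Values are FPKM, that is, sequenced fragments (read pairs) scaled by exon length and by the size of the library, so that levels of different genes can be compared. Groups were compared with limma on log2(FPKM + 1) over the 14801 genes that reached 1 FPKM in 3 or more libraries. A gene was called enriched or lower in mural cells at a Benjamini-Hochberg adjusted p under 0.05 together with a ratio of mean FPKM above 2 or under 0.5. The log2 change is the difference of mean log2(FPKM + 1), given with its standard error (SE), and for genes with low values it is smaller than the log2 of the ratio. The depth differed between the groups, with approximately 5.44 to 5.97 M read pairs on protein-coding genes in the fragment libraries against 1.04 to 2.36 M in the mural cell libraries.

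Of the 47 genes, 46 passed the filter on low values, and *Ryr3* did not. In mural cells, 18 of the 46 were enriched, where 6.43% of all genes tested were, and 4 were lower, where 10.1% of all genes tested were. These shares describe the list and are not independent evidence of a direction. The median ratio of the 46 genes was 1.80, against 0.943 for all genes tested. In 23 of the 47 genes every mural cell library was above every fragment library, in 9 every mural cell library was below, and in 15 the groups overlapped. Among the 30 genes with an adjusted p under 0.05, 8 stayed within 2-fold and are described with their values. For all genes tested, the shares that separate the groups or pass the adjusted p alone were not computed. The counts of separated genes and of genes under that p therefore describe the list only.

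**Figure D1:**
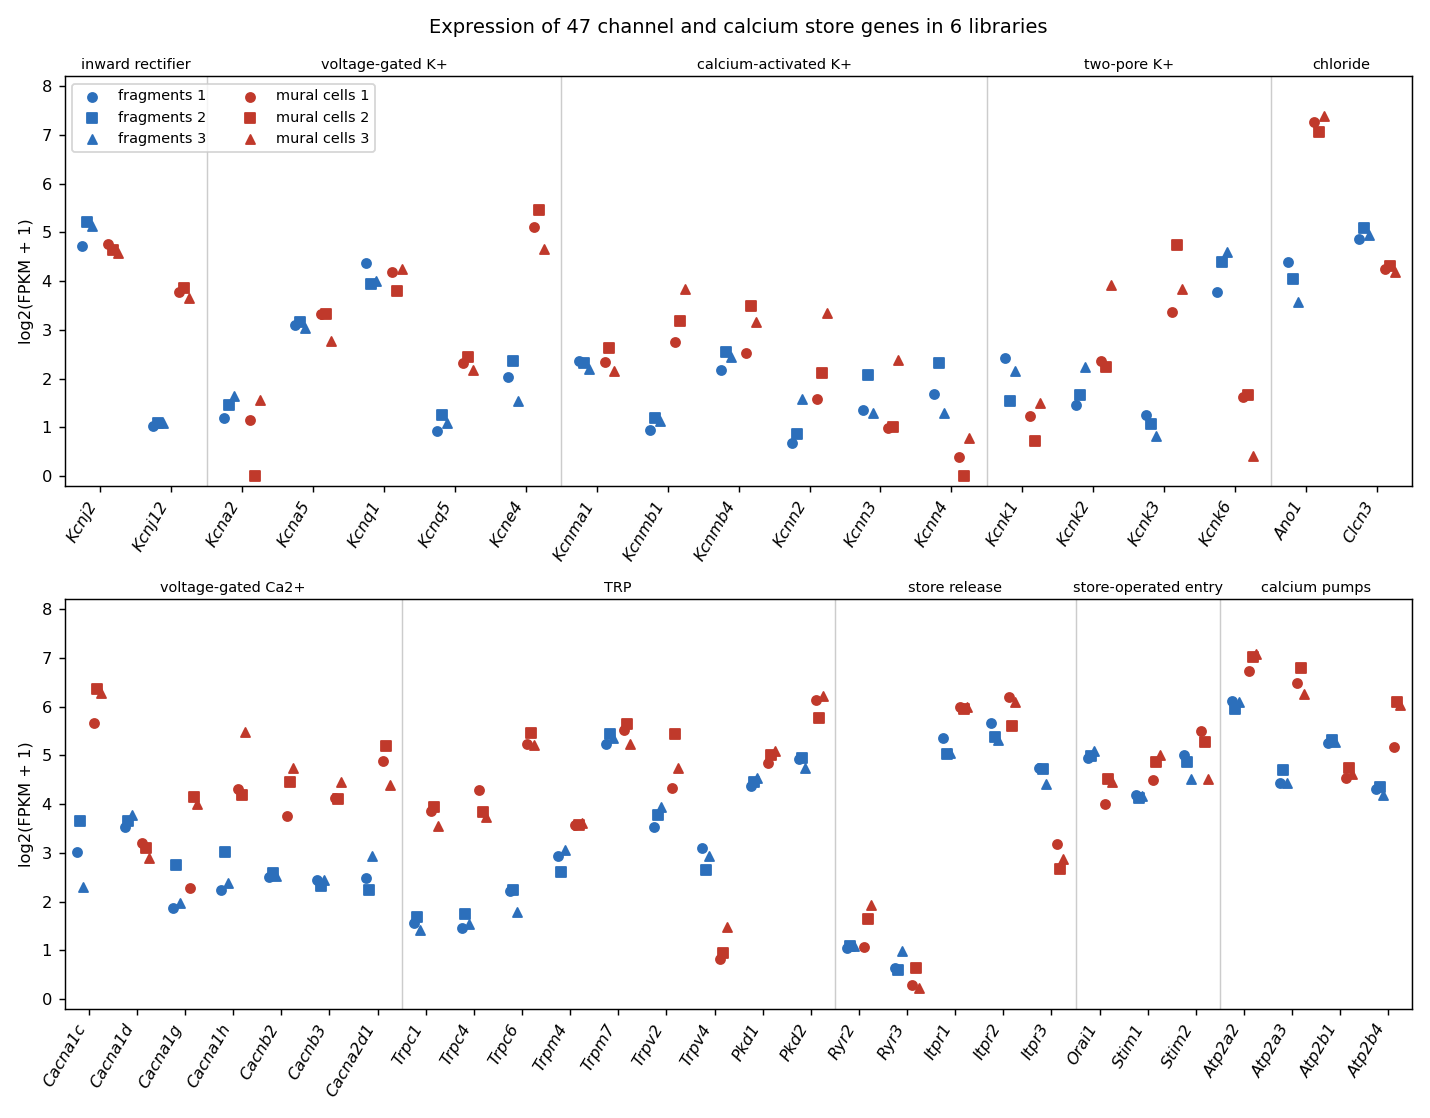
Expression of the 47 genes in each of the 6 libraries as log2(FPKM + 1), ordered by role, with fragments in blue, mural cells in red and the replicate number shown by the marker. *Ano1* in mural cells, at 133 to 166 FPKM, is the highest point of the upper panel, and the genes with separated groups can be told from the 15 whose groups overlap.

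The identity of the groups was checked on marker lists. All 13 mural cell markers were enriched, with ratios from 6.47 to 10.9, and their summed FPKM was 418 to 669 in fragments and 3925 to 5301 in mural cells. The gate on eGFP and DsRed itself selects cells in which the promoters of *Pdgfrb* and *Cspg4*, both on this list, are active. *Vtn*, also on the list, was picked by the paper for its specificity and abundance in these same data. The enrichment of these genes is therefore not an independent check of identity. Of 9 smooth muscle markers 8 were enriched, and their sum in mural cell libraries 1, 2 and 3 was 1286, 2410 and 2612 against 224 to 317 in fragments. Of 6 fibroblast markers 5 were enriched as well, with sums of 60.1 to 69.1 in fragments and 495 to 680 in mural cells. Microglia markers were lower for 8 of 8 genes, with sums of 1564 to 1806 in fragments and 108 to 166 in mural cells. Endothelial markers were lower for 2 of 12 genes, with sums of 2300 to 2693 in fragments and 1643 to 2115 in mural cells, a median of 62.8% of the fragments. Astrocyte, oligodendrocyte progenitor, neuron and erythroid markers had no call among 8, 6, 7 and 5 tested genes. The astrocyte sum in the mural cell libraries was 257, 212 and 750 and the oligodendrocyte progenitor sum 56.0, 49.5 and 157, so that library 3 stood above libraries 1 and 2 in both. The neuron sum was 45.8 to 62.8 in fragments and 23.9 to 42.7 in mural cells, and the erythroid sum 146 to 234 and 149 to 269. No marker of these lists was at 0 in all libraries of a group. The part of these cell types in the values of the channel genes was not tested.

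Inward rectifier channels of the Kir2 type pass potassium near the resting potential and respond to extracellular potassium. *Kcnj2* and *Kcnj12* encode pore subunits of this family. *Kcnj12* (chromosome 11, 60836066 to 60884633, NCBIM37) had an FPKM of 1.05, 1.13 and 1.13 in fragments 1, 2 and 3 and of 12.8, 13.5 and 11.5 in mural cells 1, 2 and 3. The spread within each group was small and the groups were far apart, at a ratio of 11.4 and a log2 change of 2.69 ± 0.23 (SE, adjusted p = 0.000296, limma). These *Kcnj12* values rest on approximately 11, 11 and 12 read pairs in fragments and 51, 23 and 21 in mural cells. With so few, the small spread is not a measure of precision. *Kcnj2* had 25.6, 35.9 and 34.03 in fragments and 26.1, 23.8 and 22.7 in mural cells, with overlapping groups and an adjusted p of 0.162. As a share of the summed FPKM of both genes, *Kcnj12* made up 3.05 to 3.93% in fragments and 32.8 to 36.1% in mural cells, while *Kcnj2* remained the larger part in all 6 libraries. *Kcnj8*, the pore subunit of the KATP channel and a mural cell marker that is not one of the 47 genes, had a ratio of 10.9, and *Abcc9*, its regulatory subunit, of 7.90.

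Among voltage-gated potassium channels, the accessory subunit *Kcne4* and the pore subunit *Kcnq5* were enriched, and the pore genes *Kcnq1*, *Kcna5* and *Kcna2* were not called. *Kcne4*, which modulates channels of the Kv1 and KCNQ families, lies on chromosome 1 from 78813502 to 78816599. Its FPKM was 3.13, 4.18 and 1.91 in fragments and 33.5, 43.1 and 24.1 in mural cells, so that the lowest mural cell library was several times above the highest fragment library. The ratio was 10.9 and the log2 change 3.09 ± 0.30 (SE, adjusted p = 0.000533, limma). *Kcnq5*, a KCNQ pore gene of smooth muscle, had 0.892, 1.39 and 1.13 in fragments and 4.01, 4.43 and 3.53 in mural cells, a ratio of 3.51 (adjusted p = 0.0143, limma). This call was lost when any 1 of the fragment libraries was left out, with adjusted p from 0.0655 to 0.0953, although the groups did not overlap.

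*Kcnq1*, a KCNQ pore gene that pairs with Kcne subunits, had 14.3 to 19.9 in fragments and 12.9 to 18.0 in mural cells. The FPKM of *Kcne4* per that of *Kcnq1* was 0.127 to 0.292 in fragments and 1.34 to 3.34 in mural cells. *Kcna5* had 7.28 to 7.93 in fragments and 5.89 to 9.11 in mural cells. *Kcna2* was low throughout, at 1.28 to 2.11 and 0 to 1.95, and rests on 7, 0 and 5 read pairs in the mural cell libraries. For these 3 genes the groups overlapped and the adjusted p was 0.938, 0.910 and 0.445.

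Calcium-activated potassium channels of large conductance consist of the pore *Kcnma1* and a tissue-specific beta subunit that sets the calcium sensitivity. The pore gene did not pass the test, with 3.61 to 4.15 in fragments and 3.47 to 5.19 in mural cells (adjusted p = 0.853, limma). *Kcnmb1*, the beta subunit typical of smooth muscle (chromosome 11, 33863013 to 33873641), had 0.933, 1.30 and 1.19 in fragments and 5.79, 8.08 and 13.4 in mural cells. The groups were separated, at a ratio of 7.95 and a log2 change of 2.17 ± 0.33 (SE, adjusted p = 0.00359). Behind these values stand 17, 22 and 22 read pairs in fragments and 41, 24 and 42 in mural cells, so that the order of the mural cell libraries carries counting error. The FPKM of *Kcnmb1* per that of *Kcnma1* was 0.225 to 0.328 in fragments and 1.41 to 3.85 in mural cells. *Kcnmb4*, the beta subunit known from neurons, had 3.52, 4.81 and 4.47 in fragments and 4.80, 10.3 and 8.02 in mural cells, with groups that overlapped by mural cell library 1. Its adjusted p was 0.162 with all libraries, and 0.0447 at a ratio of 2.15 without mural cell library 1.

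Small and intermediate conductance channels are opened by calcium through calmodulin and are best known in endothelium and neurons. *Kcnn4*, the intermediate conductance channel, was lower in mural cells, with 2.22, 4.03 and 1.47 in fragments and 0.323, 0 and 0.726 in mural cells, a ratio of 0.136 (adjusted p = 0.0380, limma). It passed the filter only through the fragments. The mural cell values rest on approximately 2 read pairs in all against 63, a pooled ratio of 0.129 with an exact 95% interval from 0.0153 to 0.487 that covers counting error only. The ratio was 0.204 without mural cell library 2 and 0.0627 without library 3, and the call was lost without mural cell library 1 (adjusted p = 0.0680) and without library 2 (0.0830). *Kcnn4* was not tested without any 1 of the fragment libraries. *Kcnn2* had 0.606, 0.823 and 2.01 in fragments and 1.98, 3.36 and 9.15 in mural cells, at a ratio of 4.21 with overlapping groups and an adjusted p of 0.109, and of 2.33 without mural cell library 3 or 6.76 without fragment library 3. *Kcnn3* had 1.55, 3.22 and 1.44 in fragments and 0.971, 1.00 and 4.26 in mural cells, a ratio of 1.00, or of 0.477 without mural cell library 3.

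Two-pore potassium channels carry background current that is open at rest. *Kcnk3*, an acid-sensitive member of the family, lies on chromosome 5 from 30890543 to 30927643 and had the highest ratio of the 46 genes tested. Its FPKM was 1.40, 1.11 and 0.774 in fragments and 9.37, 25.7 and 13.4 in mural cells. The mural cell libraries were all above the fragments but spread widely among themselves, and the ratio of 14.7 was 10.4 without mural cell library 2. The log2 change was 2.93 ± 0.38 (SE, adjusted p = 0.00175). *Kcnk6*, another background channel, went the other way, with 12.8, 20.0 and 23.2 in fragments and 2.07, 2.17 and 0.326 in mural cells. It had the lowest ratio of the 46 genes, 0.0815, and a log2 change of -3.03 ± 0.41 (SE, adjusted p = 0.00213, limma). With all libraries this ratio was within the range of the 8 microglia markers, 0.0708 to 0.110. The mural cell values of *Kcnk6* rest on approximately 14, 6 and 1 read pairs. When 1 library was left out, its ratio ran from 0.0641 to 0.114.

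*Kcnk2*, a mechanosensitive background channel, had 1.75, 2.17 and 3.74 in fragments and 4.16, 3.71 and 14.1 in mural cells. The groups overlapped slightly, the ratio was 2.87 with an adjusted p of 0.175, and without mural cell library 3 it was 1.54. *Kcnk1* had 4.37, 1.91 and 3.48 in fragments and 1.34, 0.639 and 1.81 in mural cells, which did not overlap, at a ratio of 0.389 and an adjusted p of 0.118. Only 5, 1 and 3 read pairs stand behind the *Kcnk1* values of the mural cell libraries.

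Voltage-gated calcium channels gave the most enriched genes of any role, together with TRP channels, 5 of 7. *Cacna1c*, the pore of the main L-type channel of smooth muscle (chromosome 6, 118542314 to 119146249), had 7.12, 11.5 and 3.90 in fragments and 49.6, 81.1 and 76.5 in mural cells. The groups were widely separated, at a ratio of 9.20 and a log2 change of 3.11 ± 0.36 (SE, adjusted p = 0.00104). *Cacna1d*, the other L-type pore of the list, had 10.5 to 12.8 in fragments and 6.44 to 8.18 in mural cells. These did not overlap, but the ratio of 0.638 was within 2-fold and the adjusted p was 0.0737. *Cacna1d* overlaps *Dcp1a* on the opposite strand, at 11.3 to 12.1 in fragments and 8.1996 to 9.92 in mural cells, and *Cacna1c* overlaps *Dcp1b*, at 7.40 to 8.31 and 6.36 to 13.8. If reads were counted without strand, the reads of such pairs cannot be told apart. The 4 listed pore genes are *Cacna1c*, *Cacna1d*, *Cacna1g* and *Cacna1h*. Of their summed FPKM, *Cacna1c* made up 16.4 to 32.1% in fragments and 54.1 to 66.3% in mural cells, and *Cacna1d* 32.2 to 53.6% and 4.55 to 10.2%. Pore genes outside the list are not in this sum, among them *Cacna1a*, at 20.8 to 52.6 in fragments and 2.62 to 15.1 in mural cells.

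T-type channels open at more negative voltage. *Cacna1h* had 3.74, 7.05 and 4.25 in fragments and 18.8, 17.1 and 43.6 in mural cells, where library 3 stood above the others. Its ratio was 5.29 and its log2 change 2.11 ± 0.39 (SE, adjusted p = 0.00819), and the ratio was 3.59 without mural cell library 3. *Cacna1g* had 2.66, 5.72 and 2.90 in fragments and 3.87, 16.6 and 15.0 in mural cells, with a low library 1 that overlapped the fragments. Its adjusted p was 0.132 at a ratio of 3.14, and without mural cell library 1 it was 0.0120 at a ratio of 4.19.

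Accessory subunits of calcium channels carry the pore to the membrane and shape its gating. The 3 listed genes of this kind were all enriched, where 6.43% of all genes tested were. The beta subunit *Cacnb2* had 4.67, 5.03 and 4.76 in fragments and 12.4, 21.0 and 25.8 in mural cells, a ratio of 4.10. The other listed beta subunit, *Cacnb3*, had 4.46, 4.02 and 4.403 in fragments and 16.4, 16.3 and 20.8 in mural cells, a ratio of 4.16. *Cacna2d1*, the alpha-2-delta subunit, had 4.58, 3.75 and 6.65 in fragments and 28.7, 35.4 and 20.1 in mural cells, a ratio of 5.62. For each of these genes all mural cell libraries lay above all fragment libraries, with adjusted p of 0.00415, 0.000830 and 0.00136. The FPKM of *Cacnb2* per that of *Cacna1c* was 0.436 to 1.22 in fragments and 0.251 to 0.338 in mural cells. Other beta and alpha-2-delta genes, outside the list, were tested and not called: *Cacnb1* (ratio 1.66), *Cacna2d2* (0.856) and *Cacna2d3* (1.12).

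TRPC channels are non-selective cation channels opened downstream of phospholipase C. All 3 of the listed genes were enriched. *Trpc6*, which diacylglycerol opens (chromosome 9, 8544432 to 8680565), had 3.63, 3.74 and 2.46 in fragments and 36.4, 43.3 and 36.2 in mural cells. The spread within each group was small beside the distance between them, with a ratio of 11.8, a log2 change of 3.22 ± 0.20 (SE) and the lowest adjusted p of the 46 genes, 0.000118. *Trpc4* had 1.74, 2.37 and 1.925 in fragments and 18.6, 13.3 and 12.3 in mural cells, a ratio of 7.31 (adjusted p = 0.000742). *Trpc1* had 1.94, 2.23 and 1.66 in fragments and 13.5, 14.4 and 10.8 in mural cells, a ratio of 6.62 (adjusted p = 0.000722). *Trpc6* made up 40.7 to 49.7% of the summed FPKM of the 3 genes in fragments and 53.1 to 61.1% in mural cells.

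Because these genes were enriched together, the 250 bases before the RefSeq start of each are shown, from the GRCm38.p6 assembly and its own coordinates, and 5′ to 3′ on the strand of the gene. *Trpc6* lies at chr9:8543892-8544141 on the plus strand, *Trpc1* at chr9:95750349-95750598 on the minus strand and *Trpc4* at chr3:54155807-54156056 on the plus strand. Capitals mark a CArG box, the motif known as the site of serum response factor, in *Trpc6*, 122 to 113 bases before the start, and the letters TGGGAA, read on either strand, in *Trpc1* (153 to 148 bases before) and *Trpc4* (135 to 130 bases before).
Trpc6: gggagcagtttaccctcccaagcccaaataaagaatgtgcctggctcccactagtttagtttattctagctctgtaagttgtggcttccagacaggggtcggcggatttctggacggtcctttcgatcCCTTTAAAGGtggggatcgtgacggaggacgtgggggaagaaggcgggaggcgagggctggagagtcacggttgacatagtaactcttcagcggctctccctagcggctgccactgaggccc
Trpc1: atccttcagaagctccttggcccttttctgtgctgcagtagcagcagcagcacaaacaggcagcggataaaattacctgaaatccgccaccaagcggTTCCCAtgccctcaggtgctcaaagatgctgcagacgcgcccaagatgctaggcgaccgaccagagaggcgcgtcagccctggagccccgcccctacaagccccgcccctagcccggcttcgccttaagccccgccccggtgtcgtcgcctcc
Trpc4: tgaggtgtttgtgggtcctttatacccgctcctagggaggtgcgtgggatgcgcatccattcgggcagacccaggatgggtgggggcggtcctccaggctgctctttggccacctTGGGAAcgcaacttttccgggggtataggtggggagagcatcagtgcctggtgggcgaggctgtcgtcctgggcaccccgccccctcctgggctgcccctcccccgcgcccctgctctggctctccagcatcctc
RefSeq windows of 300 bases around the start (250 before and 50 after) were given for 37 of the 47 genes and 16 of the 18 enriched genes. The 37 genes had 50 windows, and the shares of all windows are to be set beside these 50. On both strands, the CArG box was in 1 of the 50 windows, that of *Trpc6*, and in 1.63% of all 32851 windows. TGGGAA was in 11 of the 50 windows, from 11 genes with 7 of them enriched, and in 25.6% of all windows. The MEF2 box was found in 1 window, of *Clcn3* (3.19% of all windows), and AGATAA in 1, of the enriched gene *Atp2b4* (11.2%). GGAATG was in 8 windows from 8 genes, 3 of them enriched (14.7%). CAGCTG was in 13 windows from 11 genes, 5 of them enriched (16.3%). A match describes the letters in the window and does not show a site in use.

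The remaining TRP channels and the polycystins were mixed. *Trpv2* had 10.6, 12.7 and 14.3 in fragments and 19.1, 42.5 and 25.7 in mural cells, a ratio of 2.32 (adjusted p = 0.0337, limma). Although the groups did not overlap, the call was lost without any 1 of the fragment libraries or without mural cell library 3, with adjusted p from 0.0586 to 0.121, and without mural cell library 2, where the ratio was 1.79. It was also lost without the intensity trend (adjusted p = 0.0502) and without the filter on low values (0.0525). *Trpv4*, a cation channel of endothelium and glia opened by osmotic and mechanical stimuli, was lower in mural cells. It had 7.63, 5.28 and 6.62 in fragments and 0.760, 0.935 and 1.80 in mural cells, a ratio of 0.179 and a log2 change of -1.81 ± 0.30 (SE, adjusted p = 0.00486, limma). The mural cell values of *Trpv4* rest on approximately 4, 2 and 4 read pairs.

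*Pkd2*, which encodes the channel polycystin 2, had 29.6, 30.0 and 25.6 in fragments and 68.9, 53.7 and 73.1 in mural cells, a ratio of 2.30 (adjusted p = 0.00192). Its partner *Pkd1* had 19.7 to 22.4 in fragments and 27.7 to 33.0 in mural cells, which passed the adjusted p (0.0341) but not the 2-fold limit. *Trpm4*, a calcium-activated channel for monovalent cations, likewise separated the groups within 2-fold, at 5.08 to 7.38 and 10.9 to 11.3 (ratio 1.73, adjusted p = 0.0484). *Trpm7*, a channel with a kinase domain that carries magnesium, had 36.6 to 42.6 in fragments and 36.5 to 49.1 in mural cells, with overlapping groups (adjusted p = 0.609). *Pkd1* overlaps *Tsc2* on the opposite strand, which had 26.0 to 34.95 FPKM across the libraries, and whether reads were counted by strand is not stated.

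Release from the stores runs through IP3 receptors and ryanodine receptors. *Itpr3* (chromosome 17, 27194249 to 27259168) was lower in mural cells, with 25.7, 25.3 and 20.2 in fragments and 8.07, 5.35 and 6.35 in mural cells, a ratio of 0.278 and a log2 change of -1.71 ± 0.21 (SE, adjusted p = 0.00133, limma). *Itpr1* had 40.0, 31.4 and 32.1 in fragments and 62.6, 60.6 and 63.0 in mural cells, with separated groups that passed the adjusted p (0.00413) but stayed within 2-fold, at a ratio of 1.80. *Itpr2* had 38.9 to 49.5 in fragments and 47.7 to 72.4 in mural cells, with overlapping groups and an adjusted p of 0.0929. Of the summed FPKM of the 3 genes, *Itpr3* made up 22.1 to 25.9% in fragments and 4.64 to 5.64% in mural cells.

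The ryanodine receptors were low in both groups. *Ryr2* had 1.07, 1.13 and 1.14 in fragments and 1.08, 2.10 and 2.83 in mural cells, which overlapped, with a ratio of 1.80 and an adjusted p of 0.346. *Ryr3* had 0.522 to 0.977 in fragments and 0.167 to 0.554 in mural cells and was not tested. In mural cells the mean FPKM was 2.00 for *Ryr2* against 62.1 for *Itpr1* and 62.5 for *Itpr2*, and those IP3 receptor levels did not differ beyond their spread (SD 1.27 and 13.1, n = 3 each).

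Store-operated entry is gated by the STIM proteins, which sense the calcium of the store and open the pore formed by ORAI. *Stim1* had 16.5 to 17.2 in fragments and 21.6 to 31.0 in mural cells and passed the adjusted p (0.0378) within 2-fold, at a ratio of 1.59. *Orai1* lay in the other direction, with 30.0 to 33.2 in fragments and 15.1 to 22.0 in mural cells, a ratio of 0.617 (adjusted p = 0.0285), also within 2-fold. *Orai1* overlaps *Kdm2b* on the opposite strand, at 109 to 147 in fragments and 72.5 to 122 in mural cells. *Stim2* had 21.8 to 31.1 in fragments and 21.9 to 44.5 in mural cells, with overlapping groups and an adjusted p of 0.478.

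Calcium is returned by the SERCA pumps to the stores and by the PMCA pumps to the outside. *Atp2a3*, a SERCA gene (chromosome 11, 72774671 to 72806546), had 20.5, 24.9 and 20.5 in fragments and 88.3, 109 and 75.5 in mural cells. The groups were well apart, at a ratio of 4.14 and a log2 change of 1.99 ± 0.17 (SE, adjusted p = 0.000296). *Atp2a2*, the SERCA gene of most tissues, was the higher SERCA gene in every library, at 68.4, 61.3 and 67.5 in fragments and 105, 129 and 134 in mural cells, and stayed within 2-fold (ratio 1.86, adjusted p = 0.00303). The share of *Atp2a3* in their sum was 23.1 to 28.9% in fragments and 36.1 to 45.8% in mural cells.

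The 2 listed PMCA genes differed between the groups in opposite directions. *Atp2b4* had 19.0, 19.4 and 17.2 in fragments and 35.3, 67.8 and 64.1 in mural cells and was enriched, at a ratio of 3.01 (adjusted p = 0.00536). *Atp2b1* had 37.4 to 38.6 in fragments and 22.1 to 25.8 in mural cells, which separated the groups within 2-fold, at a ratio of 0.628 (adjusted p = 0.00937). *Atp2b4* made up 31.1 to 33.6% of the sum of both genes in fragments and 61.5 to 73.1% in mural cells, so that the order of the 2 pumps was inverted between the groups in all libraries.

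**Figure D2:**
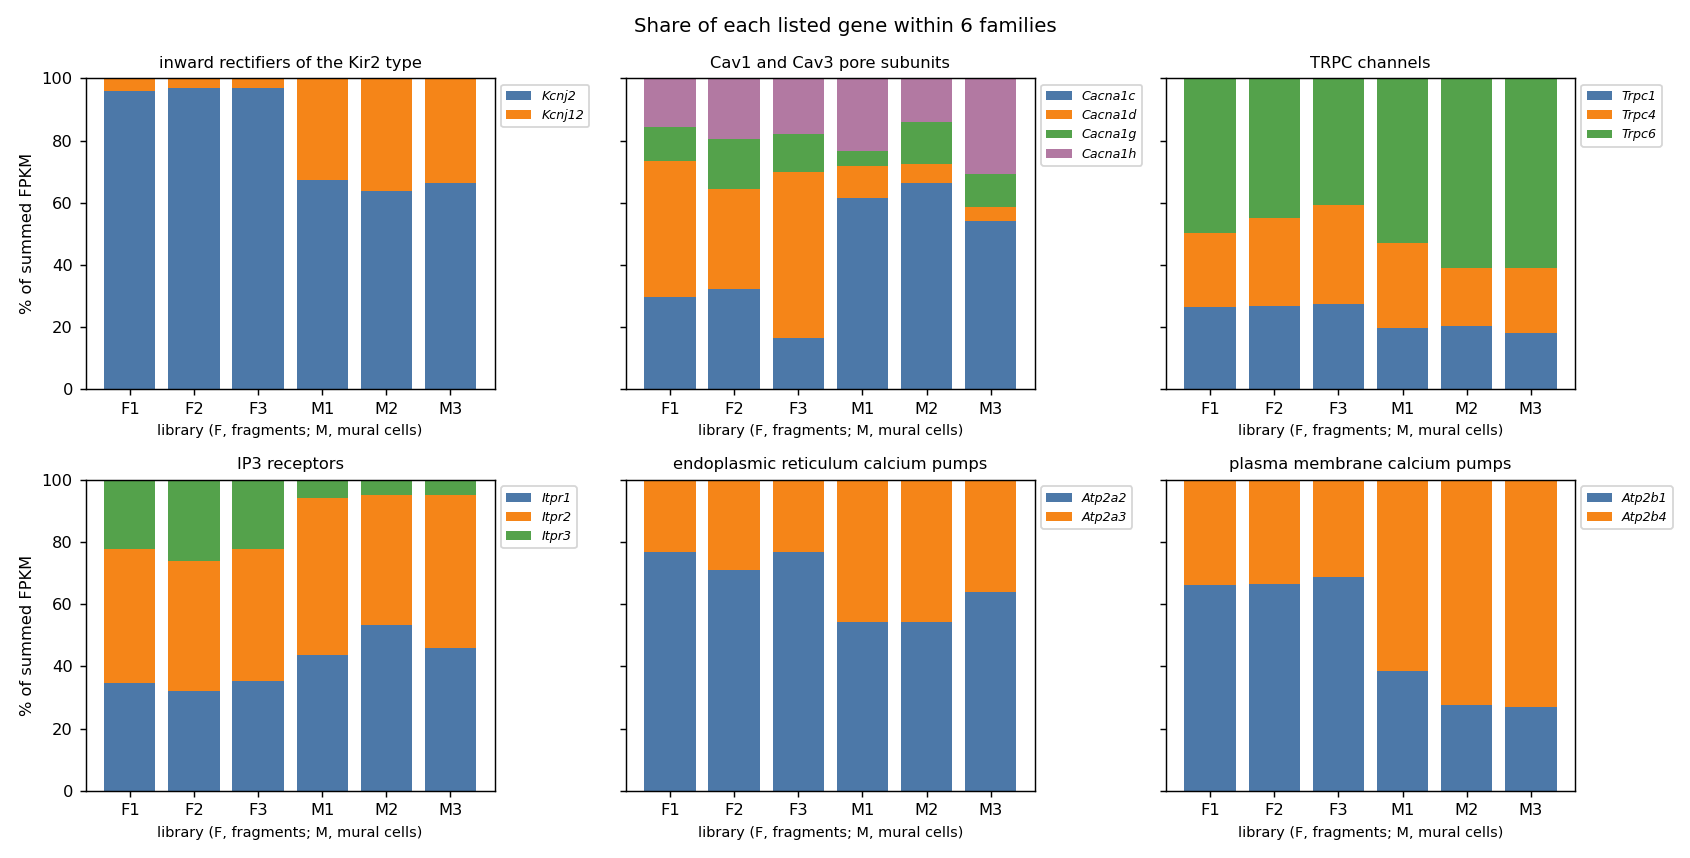
Share of each listed gene in the summed FPKM of 6 families, in percent, for the 3 fragment libraries (F1 to F3) and the 3 mural cell libraries (M1 to M3). *Atp2b4* rises from 31.1 to 33.6% of the listed plasma membrane pumps to 61.5 to 73.1%. *Cacna1c* rises from 16.4 to 32.1% of the listed calcium channel pores to 54.1 to 66.3%. *Itpr3* goes from 22.1 to 25.9% of the IP3 receptors to 4.64 to 5.64%. Genes outside the list are left out of these sums.

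Calcium-activated chloride channels depolarize smooth muscle when calcium rises. *Ano1*, which encodes such a channel (chromosome 7, 151774454 to 151937879), had 20.2, 15.5 and 10.9 in fragments and 152, 133 and 166 in mural cells. No other of the 47 genes reached its mean of 150 FPKM in mural cells (SD 16.8, n = 3), the next being *Atp2a2* with a mean of 122 (SD 15.7, n = 3), and the mural cell libraries of these 2 genes overlapped. For *Ano1* the ratio was 9.70 and the log2 change 3.23 ± 0.22 (SE, adjusted p = 0.000139). *Clcn3*, a chloride-proton exchanger of endosomes, had 28.3 to 32.9 in fragments and 17.2 to 19.0 in mural cells and stayed within 2-fold (ratio 0.597, adjusted p = 0.00954). The FPKM of *Ano1* per that of *Clcn3* was 0.368 to 0.714 in fragments and 7.003 to 9.67 in mural cells.

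Set beside the marker lists, the ratios of 9 of the 46 genes were at or above 6.47, the lowest ratio of a mural cell marker. That marker is *Cspg4*, whose promoter drives a reporter used for sorting. The share of all genes tested at or above this ratio was not computed. The 9 genes were *Kcnk3*, *Trpc6*, *Kcnj12*, *Kcne4*, *Ano1*, *Cacna1c*, *Kcnmb1*, *Trpc4* and *Trpc1*. When 1 library was left out, the ratios of *Trpc1*, *Trpc4* and *Kcnmb1* fell as low as 6.18, 6.34 and 6.08, under 6.47. The ratios of *Orai1*, *Atp2b1*, *Clcn3*, *Cacna1d* and *Kcna2* lay between 0.597 and 0.638, beside a median of 0.628 for the endothelial markers, and *Kcna2* had overlapping groups. The sums of the mural cell, smooth muscle and fibroblast lists were higher in every mural cell library than in every fragment library, as for the enriched genes. The sums of the microglia, endothelial and neuron lists were lower in every mural cell library, as for the 4 lower genes. Of those 4, *Kcnk6* alone was within the range of ratios of the microglia markers with all libraries, and it left that range without some single libraries. The ratios of *Kcnn4* (0.136), *Trpv4* (0.179) and *Itpr3* (0.278) were above the range and below 0.353, the lowest ratio of an endothelial marker. *Kcnn4* passed the filter only through the fragments. Its exact interval for the pooled ratio, 0.0153 to 0.487, reaches past both limits, so that its place beside the markers is not settled.

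**Figure D3:**
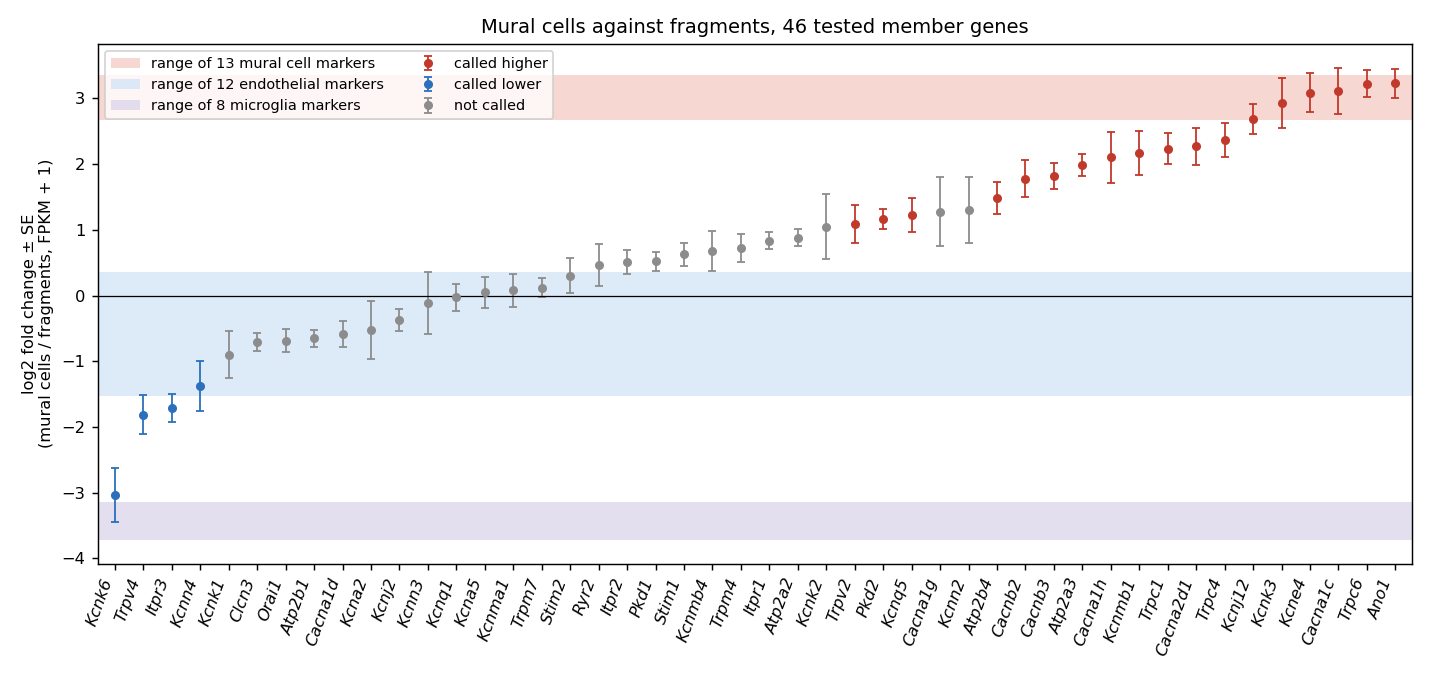
Log2 change of each of the 46 tested genes with its standard error, mural cells against fragments on the FPKM + 1 scale, in order of size, with the 18 enriched genes in red, the 4 lower genes in blue and the rest in grey. Shaded bands give the range of the mural cell, endothelial and microglia markers, and the genes run from -3.03 (*Kcnk6*) to 3.23 (*Ano1*).

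The mural cell libraries also differed among themselves. Of the 47 genes, 18 were lowest in library 1, 12 in library 2 and 17 in library 3, and 6, 21 and 20 were highest there. *Kcnn2*, *Kcnn3* and *Kcnk2* were highest in library 3, where the astrocyte and oligodendrocyte progenitor sums were also highest. *Kcnmb1*, *Kcnk3*, *Cacna1c*, *Cacna1g*, *Cacnb2* and *Atp2b4* were lowest in library 1, where the smooth muscle sum was lowest. These 9 genes were picked for this order after their values were seen, so that it supports nothing, and with 3 libraries no correlation was computed. Others had another order: *Trpc4*, *Stim2* and *Itpr2* were highest in library 1, and *Pkd2* and *Cacna1h* lowest in library 2. *Kcnj12*, *Trpc6*, *Trpm4* and *Itpr1* differed little among the mural cell libraries.

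**Figure D4:**
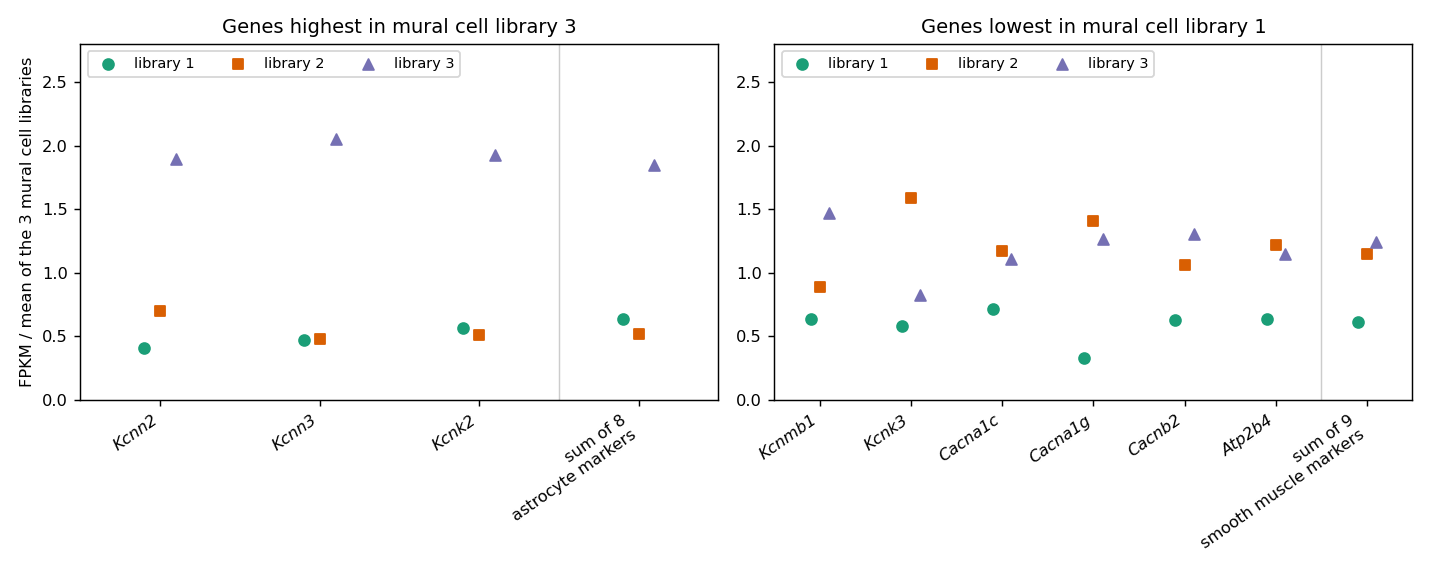
FPKM of 9 genes in each mural cell library divided by the mean of the 3 libraries, beside the summed FPKM of 8 astrocyte markers (left) and of 9 smooth muscle markers (right) on the same scale. The genes were picked because library 3 is the highest (left) or library 1 the lowest (right), as it is for the marker sum beside them.

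For comparison, the other annotated genes of the same channel families were taken by symbol. Of 136 such genes 65 were tested, 10 were enriched and 10 were lower, where 6.43% and 10.1% of all genes tested were. Their median ratio was 0.856, against 0.943 for all genes tested. Among the enriched genes were *Kcnj8*, given above, *Kcng1* and *Kcnab1*. *Kcng1*, a silent modifier of voltage-gated channels, had a ratio of 21.3 but passed the filter on low values only through the mural cells, with 0.276 to 0.547 FPKM in fragments. *Kcnab1*, a beta subunit of Kv1 channels, had a ratio of 7.79. The 3 with the largest decrease were *Kcnk13*, *Kcne2* and *Trpm2*, all of which passed the filter only through the fragments and so had to differ. *Kcnk13* had 8.75 to 11.99 in fragments and 0 to 0.476 in mural cells, a pooled ratio of 0.0311 from approximately 3 against 393 read pairs (exact 95% interval 0.00639 to 0.0916). *Kcne2* had a pooled ratio of 0.0241 (interval 0.000607 to 0.136, from 1 against 169), and *Trpm2* a ratio of 0.0478 with a mural cell FPKM of 0 to 0.603.

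Partners of calcium handling, such as junction, buffer and phospholipase genes, were listed separately. Of 47 symbols 43 were found and 41 tested, with 7 enriched, 4 lower and a median ratio of 1.17. Of all genes tested, 6.43% were enriched and 10.1% lower, so that the share of lower partners was close to that of all genes. *Mrvi1*, which links cGMP kinase to the IP3 receptor, had a ratio of 8.17. *Jph2*, which holds the store membrane to the plasma membrane, had 10.4, and the store calcium binding proteins *Casq2* and *Hrc* had 7.94 and 7.18. *Plce1*, a phospholipase C, had 6.78. Lower were the plasma membrane pumps *Atp2b3* (0.0670) and *Atp2b2* (0.202), known from neurons, and the scaffold *Homer1* (0.437). *Atp2b3*, at 0.342 to 0.687 FPKM in mural cells, passed the filter only through the fragments.

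Sodium pump subunits and chloride cotransporters set the ion gradients that these channels use. All 16 were tested, 5 were enriched, 1 was lower and the median ratio was 0.957, beside 6.43% enriched and 10.1% lower of all genes tested. *Atp1b2* had a ratio of 4.36, *Atp1a4* of 7.61 (0.603 to 0.940 FPKM in fragments, so that it passed the filter only through the mural cells), *Slc12a2*, which loads cells with chloride, of 3.30 and *Slc12a4* of 2.27.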

How the data were processed

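RNA-seq was performed on 3 mural cell and 3 microvascular fragment libraries, grouped by their sample titles. The authors depleted total RNA of rRNA and used a stranded kit. They aligned the read pairs with TopHat2 (2.0.4) to the NCBIM37 assembly, took out duplicates with Picard (1.92) and deposited FPKM values from Cufflinks (2.2.1), 1 value per gene and library, with no pooling. The scaling between libraries and the use of strand in counting are not given in the sources used here.

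For 9 identifiers with repeated identical lines 1 line was kept, which left 33460 genes, and 33116 were matched to the GENCODE annotation of NCBIM37. FPKM are not counts, so that limma 3.58.1 (R 4.3.3, moderated linear model with a trend on intensity, Benjamini-Hochberg adjusted p) was fitted to log2(FPKM + 1) over all genes that reached 1 FPKM in 3 or more libraries. The fit was run on simulated libraries with equal means, apart from a small set of genes changed by a fixed fold. These lack the broad differences in cell types of the real libraries, so that the run checks the code and not the calls. Calls required an adjusted p under 0.05 and a ratio of mean FPKM above 2 or under 0.5. Summaries were made with Python 3.11.15, pandas 2.3.3 and NumPy 2.4.6. Genes with 1 transcript gave the FPKM of 1 read pair in each library, since 96.8 to 98.6% of their low values were whole multiples within 0.03. Numbers of read pairs are approximate for genes with several transcripts, where the longest was used. Intervals are exact and cover counting error only.

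The 47 genes and the other lists were chosen with earlier results of these data known. Every one of the 47 genes is named. From the wider lists, called genes were named in order of absolute log2 change, at most 5 enriched and 3 lower per list. Some genes that this rule names are not reported here. Promoter windows were taken from RefSeq (GRCm38.p6). The labels do not tie libraries to animals, so that p-values measure the spread between these libraries. The alternatives were other pseudocounts, scalings, filters and thresholds, the replicate number as a block, and leaving out each library.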

Additional observations from a re-analysis of the deposited data

How the results depend on the processing

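Of the 47 genes, the number enriched was between 16 and 20 and the number lower 3 or 4 under all alternatives. The number enriched was 20 under quantile normalization, 19 with the replicate block, 16 at an adjusted p under 0.01 and 16 to 20 when a library was left out. Among the other families 6 genes were enriched with a filter at an FPKM of 5, 6 at an adjusted p under 0.01 and 6 to 6 without 1 library, and lower were 5, 6 and 2 to 12. For the calcium handling partners the lower genes numbered 2, 2 and 1 to 5. The lowest of these counts of lower genes came without a fragment library, where a gene present in fragments alone can no longer reach the 3 libraries that the filter asks for, *Kcnn4* included.

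Log2 changes near 0 changed sign: *Kcna2* was 0.16 and *Kcnn3* 0.46 under quantile normalization, and *Kcnq1* was 0.0049 under median-ratio scaling and 0.039 under quantile normalization. Without 1 library *Kcna5* ranged from -0.046 to 0.23, *Kcnma1* from -0.046 to 0.19, *Kcnn3* from -0.58 to 0.14 and *Kcnq1* from -0.12 to 0.11. Besides the calls given with the genes, *Kcnn2* was called under quantile normalization and with the replicate block (adjusted p = 0.0392 and 0.0494), *Ryr2* under quantile normalization (0.0460), *Trpv2* and *Kcnq5* were lost at an adjusted p under 0.01, and *Kcnn4* was lost under 6 alternatives, besides the filter at an FPKM of 5, which it did not pass, and the libraries named with it. The cause was not tested.

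Quantile normalization moved the median log2 change of all genes from -0.12 to 0.01, and calls over all genes from 952 enriched and 1493 lower to 1212 and 1080. The replicate numbers share only a number in the labels. With the replicate block the other families had 8 enriched and 11 lower, and the partners 6 and 3. Deviations of same-numbered libraries correlated at r = 0.082, 0.020 and 0.045 across genes, and every library correlated best with its own number. These correlations are small and do not settle which libraries came from the same brain. Low depth limits genes that rest on few read pairs in mural cells, among them *Kcnn4*, *Trpv4*, *Kcnk1* and *Kcna2*.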
